A study of Homo sapiens with 12 samples.

Results

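HIF2α loss was examined in U87, the long-cultured human glioblastoma line U-87 MG, by setting the 3 HIF2α-ko libraries against the 3 vector libraries, which are 6 of the 12 mRNA-seq libraries of the series. HIF2α-ko cells carried a knockout of HIF2α and vector cells an empty vector, and both were under hypoxia (1% O2), as were the other 2 groups, HIF1α-ko and HIF1α/2α-ko, in which both subunits were knocked out, each with 3 libraries. The design text of the record gives 72 h of hypoxia, while the methods of the study give a shorter time where they treat mRNA detection in general. How the knockouts were made, and whether they were clones or pools, is not given in the sources used here, and no library came from cells at normal oxygen. Of the 20263 genes in the table, 11731 had a TPM (reads per gene length, scaled to the same total in every library) of at least 1 in at least 3 of the 12 libraries and were tested. The vector libraries are denoted V1, V2 and V3 and the HIF2α-ko libraries K1, K2 and K3, by their replicate numbers.

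HIF2α is the oxygen-labile subunit, encoded by EPAS1, of a transcription factor that pairs with ARNT (HIF1β), is degraded after prolyl hydroxylation when oxygen is plentiful, and binds hypoxia response elements when oxygen is scarce. It shares many target genes with HIF1α, which is known mainly for the glycolytic genes, while HIF2α is known for genes such as TGFA and LOX, and in glioma for its expression in stem-like cells. The defining markers of the line were checked first. VIM (vimentin) and CD44, both abundant in mesenchymal glioma cells, stood at 6675 TPM or higher and at 499 TPM or higher in all 6 libraries. The astroglial markers GFAP and S100B stayed at 0.837 TPM or lower, SOX2 at 0.0413 or lower, AQP4 was listed at 0, and so was CDKN2A, a gene known to be deleted in U-87 MG. The glioma markers NES, at 3.19 to 6.07 TPM, and OLIG2, at 0.884 to 5.16 TPM in the 6 libraries, passed the filter. Of 14 markers of leukocytes, endothelial, epithelial and erythroid cells, 3 passed the filter (CSF1R, CDH5 and VWF), none of them was called with all libraries though all 3 fold changes were above 0, VWF was called higher without V1 (log2 fold change 1.16), their highest value was 7.34 TPM, the summed level of the 14 markers was 6.07 to 12.7 TPM in vector and 9.19 to 16.0 TPM in HIF2α-ko, and MS4A1, KRT5, HBA1 and HBB were listed at 0 in all 6 libraries. The part of these markers in the results was not tested.

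The targeted mRNA was lower in the knockout. EPAS1 (ENSG00000116016, GRCh38 chromosome 2, 46293667 to 46386703, protein-coding) had 286, 333 and 346 TPM in V1 to V3 and 87.6, 118 and 116 TPM in K1 to K3. The highest HIF2α-ko value lay below the lowest vector value by a wide margin, and the fall (log2 fold change -1.59, standard error 0.14, adjusted p = 0.000375) was -1.67 without V1. Among the 13 subunits, hydroxylases and coactivators of the HIF system, 2 were lower and 0 higher. ARNT, the shared partner subunit, had 29.8, 38.6 and 32.0 TPM in vector and 17.7, 21.6 and 21.5 TPM in HIF2α-ko (log2 fold change -0.69, standard error 0.15, adjusted p = 0.0133), and its call was lost without V2 or K1. HIF1A, which encodes HIF1α, had 112, 110.0 and 151 TPM in vector and 108, 76.1 and 76.6 TPM in HIF2α-ko. Its HIF2α-ko values all lay below the vector values, though K1 by little, and it was not called (log2 fold change -0.52, standard error 0.20, adjusted p = 0.112). EGLN1, the main prolyl hydroxylase of HIF, had a log2 fold change of 0.54 (adjusted p = 0.13).

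Vector replicate 1 lay apart from V2 and V3, and this touches each result below. Across the tested genes, Pearson's r of log2(TPM + 1), given as a description, was 0.968 and 0.966 between this library and the other vector libraries but 0.973 to 0.975 between it and the HIF2α-ko libraries, while the other two vector libraries reached 0.989 with each other and the HIF2α-ko libraries 0.985 to 0.992 among themselves. On the first principal component, with 48.7% of the variance, V1 scored 5.54, against -31.0 and -38.6 for V2 and V3 and 19.7 to 24.1 for HIF2α-ko. On the next component, with 23.3%, it alone scored high, at 38.7, while the other 5 libraries lay between -11.0 and -1.80. Of the genes called higher in HIF2α-ko, 63.4% had V1 on the HIF2α-ko side of the mean of the other two vector libraries, and of those called lower 74.4%. Both sides were measured from the same mean of V2 and V3, which favours agreement, and the share over all genes was not computed. These shares alone therefore do not show a lean of V1 towards HIF2α-ko. The part of this library in the results was measured by leaving it out, and what set it apart was not tested.

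A gene is termed called where its adjusted p was under 0.05, by limma on log2(TPM + 1) with Benjamini-Hochberg adjustment over all 11731 genes. The fold changes are on that scale, which understates the change of low genes. HIF2α-ko differed from vector in 1286 genes (11% of those tested), 595 higher (5.07%) and 691 lower (5.89%). These shares are the background for the counts in every gene list below. The median size of the log2 fold change among called genes was 0.75, and 263 (2.24%) reached 1 in size, 127 higher and 136 lower. The median over all tested genes was -0.04, and rescaling the libraries by their median ratio brought it to -0.00 and the split to 761 higher and 579 lower. Without V1, 2497 genes were called (21.3%), 1304 higher and 1193 lower. Of the 1286 genes, 1207 were called in the same direction without it, and 0 changed sign. The count was 766 without V2, 471 without V3, 729 without K1, 548 without K2 and 565 without K3. A fit of these 6 libraries alone called 474 genes, and among the genes named below with calls that held for each library left out, CXCL2, GRK2, PFKFB4, ABCC3, RPS9, GREM1 and COX5B were not called in it. Genes called in the same direction with all libraries and in each of the 6 fits that left out 1 vector or HIF2α-ko library are termed stable, and they numbered 396 (3.38%), 200 higher (1.7%) and 196 lower (1.67%). The ranges of the 3 HIF2α-ko and the 3 vector libraries did not overlap for 3582 genes (30.5%), 1474 that were higher (12.6%) and 2108 that were lower (18%). Among them were 582 of the 595 genes called higher and 685 of the 691 called lower, so a lack of overlap adds little to a call. The main fit held all 12 libraries, so its p-values and standard errors rest on the spread within groups pooled over all 4 groups. The labels do not say whether replicates were separate cultures, so that spread may be technical. In bulk RNA, fewer cells of a kind and less RNA per cell cannot be told apart.

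**Figure D1:**
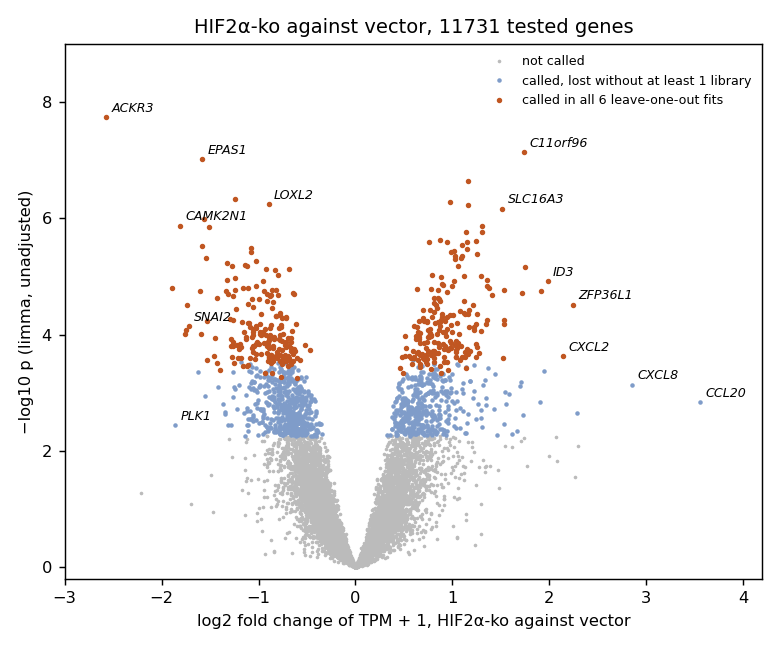
Log2 fold change of TPM + 1 in HIF2α-ko against vector (horizontal) and -log10 of the unadjusted limma p (vertical) for the 11731 tested genes. Grey points were not called, blue points were called but not in every fit leaving out 1 of the 6 libraries, and orange points are the 396 stable genes, with ACKR3 at the top left and CCL20 and CXCL8 among the large rises that were not stable.

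The largest fall among called genes without overlap and with a mean of at least 5 TPM in the higher group was that of ACKR3, an atypical receptor that takes up the chemokine CXCL12. ACKR3 had 69.1, 64.3 and 96.9 TPM in V1 to V3 and 9.38, 12.6 and 14.0 TPM in K1 to K3 (log2 fold change -2.57, standard error 0.20, adjusted p = 0.000211). Every HIF2α-ko value lay far below every vector value, and leaving out V1 gave -2.64. Of the other genes of this axis, GRK2, a kinase that phosphorylates such receptors, was higher by 0.57 (adjusted p = 0.00858), ARRB1 and ARRB2, the arrestins, were not called, and CXCL12 and CXCR4 did not pass the filter. Next came WFDC5, a small protein with the fold of protease inhibitors, with 5.42, 10.5 and 11.9 TPM in vector and 2.74, 1.40 and 1.08 TPM in HIF2α-ko (log2 fold change -1.89, standard error 0.28, adjusted p = 0.00286). CAMK2N1, an inhibitor of the calcium/calmodulin-dependent kinase CaMKII, had 37.4, 58.3 and 67.8 TPM in vector and 11.3, 16.0 and 16.2 TPM in HIF2α-ko (log2 fold change -1.81, standard error 0.21, adjusted p = 0.00125). In both genes V1 was the lowest vector library, and a lack of overlap was a condition of their choice. ENSG00000267952, a protein-coding gene on chromosome 19 that carries no symbol in the tables used, changed by -1.76 (adjusted p = 0.00596).

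Transcription factors were among the other large falls. SNAI2 encodes Slug, a repressor that acts in mesenchymal transition, and had 111, 211 and 310.5 TPM in V1 to V3 and 52.2, 61.4 and 61.0 TPM in K1 to K3 (log2 fold change -1.72, standard error 0.30, adjusted p = 0.00525). The vector values spread widely, from 111 TPM in V1 to 310.5 TPM in V3, and the lowest of them lay above all 3 HIF2α-ko values. SMAD3, which carries the TGF-beta signal to the nucleus, had 73.3, 95.2 and 147 TPM in vector and 41.6, 28.8 and 29.5 TPM in HIF2α-ko (log2 fold change -1.59, standard error 0.28, adjusted p = 0.00596). The highest vector value of SMAD3 was that of V3 and the lowest that of V1. LRRC15, a leucine-rich repeat membrane protein of stroma, changed by -1.74 (adjusted p = 0.00365), and STXBP6, a regulator of SNARE complexes, by -1.58 (adjusted p = 0.00157). UBALD2 changed by -1.62 (adjusted p = 0.0119), with 160.1, 314 and 355 TPM in vector and 113, 71.0 and 74.5 TPM in HIF2α-ko, and its call was lost without V3 or K2. All falls named in this paragraph other than that of UBALD2 were stable.

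Among the rises without overlap and with a mean of at least 5 TPM in the higher group, that of CXCL8 (interleukin 8) was the largest, and it is described with the chemokines. ZFP36L1 encodes a protein that binds AU-rich elements and marks mRNAs for decay, and had 156, 60.4 and 66.8 TPM in V1 to V3 and 476, 310.1 and 465 TPM in K1 to K3 (log2 fold change 2.24, standard error 0.35, adjusted p = 0.00363). V1 was the highest vector library for this gene, and without it the log2 fold change was 2.67. ID3, an inhibitor of basic helix-loop-helix factors and a target of BMP signalling, had 3.03, 0.757 and 1.15 TPM in vector and 6.04, 9.82 and 11.4 TPM in HIF2α-ko (log2 fold change 1.98, standard error 0.28, adjusted p = 0.00264). MT3, the metallothionein known from brain, had 1.64, 3.32 and 4.14 TPM in vector and 10.8, 12.9 and 12.5 TPM in HIF2α-ko (log2 fold change 1.75, standard error 0.24, adjusted p = 0.00198). For ID3 the HIF2α-ko libraries spread from 6.04 to 11.4 TPM, and for MT3 they lay closely together, in both cases above every vector library, and the call of MT3 was lost with a pseudocount of 0.1. C11orf96, a gene of little known function, had 1.16, 0.510 and 0.850 TPM in vector and 4.82, 5.02 and 5.37 TPM in HIF2α-ko (log2 fold change 1.74, standard error 0.15, adjusted p = 0.000375), and with these low values its fold change is understated. NMB, which encodes neuromedin B, had 295, 145 and 131 TPM in vector and 677, 546 and 547 TPM in HIF2α-ko (log2 fold change 1.72, standard error 0.26, adjusted p = 0.00291). DDIT4 (REDD1), an inhibitor of mTORC1 that hypoxia and stress induce, had 759, 399 and 354 TPM in vector and 1248, 1465 and 1436 TPM in HIF2α-ko (log2 fold change 1.54, standard error 0.26, adjusted p = 0.00496).

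RARRES2, which encodes the chemoattractant chemerin, rose by 1.53 (adjusted p = 0.00286), with 65.7, 66.6 and 56.2 TPM in vector and 209.6, 168 and 173 TPM in HIF2α-ko and with little spread in vector. SAA1, an acute-phase protein, rose by 1.53 (adjusted p = 0.00516), with 19.8, 13.6 and 14.5 TPM in vector and 75.5, 37.1 and 38.0 TPM in HIF2α-ko, and its reads may be shared with the near-identical SAA2. ENSG00000255339, a protein-coding gene on chromosome 10 without a symbol in the tables used, rose by 1.91 (adjusted p = 0.00286). TRPV2, a cation channel, had 5.51, 0.789 and 0.508 TPM in vector and 9.03, 8.96 and 9.09 TPM in HIF2α-ko (log2 fold change 1.95, standard error 0.41, adjusted p = 0.0118), and since V1 held 5.51 TPM, the rise was 2.61 without it, while the call was lost without V3. ID1, a paralog of ID3, had 10.2, 4.34 and 2.79 TPM in vector and 10.6, 25.3 and 26.0 TPM in HIF2α-ko (log2 fold change 1.73, standard error 0.45, adjusted p = 0.0307), V1 lay just below K1, and the call was lost without V2 or V3 or K2 or K3.

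**Figure D2:**
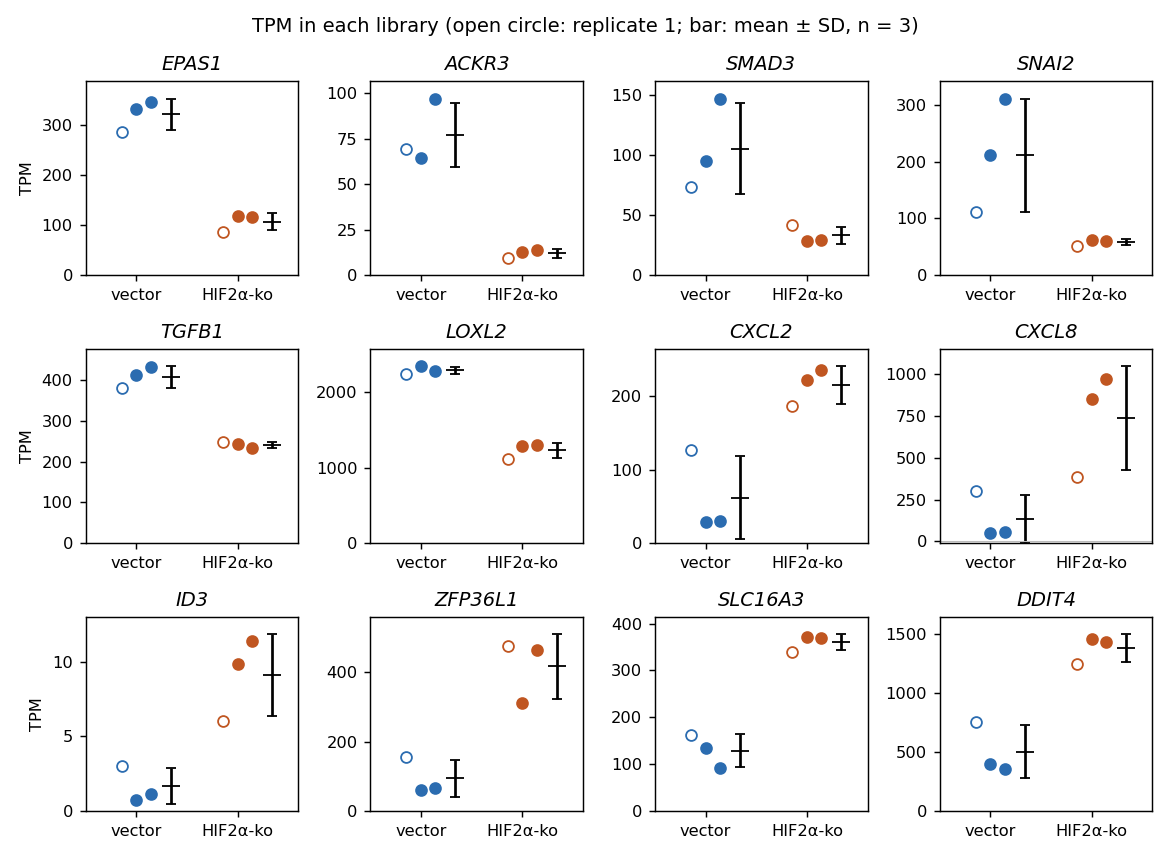
TPM (vertical, linear from 0, except that the axis runs below 0 where the mean less the SD does) of 12 genes in the 3 vector libraries (blue) and the 3 HIF2α-ko libraries (orange), with open circles for replicate 1 and black bars for the mean ± SD. EPAS1, ACKR3, SMAD3, SNAI2, TGFB1 and LOXL2 lie lower in HIF2α-ko and the other 6 genes higher, and for CXCL2, CXCL8 and ZFP36L1 vector replicate 1 lies above vector replicates 2 and 3.

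Of 27 genes widely used as markers of hypoxia, 8 were higher in HIF2α-ko and 0 lower, with a median log2 fold change of 0.23 against -0.04 over all tested genes and against 5.07% of all genes called higher. ANGPTL4, a lipoprotein lipase inhibitor, had 91.5, 154 and 137 TPM in V1 to V3 and 256, 389.7 and 368 TPM in K1 to K3 (log2 fold change 1.41, standard error 0.21, adjusted p = 0.00297). ANKRD37, P4HA2 (a collagen prolyl hydroxylase) and DDIT4 were also stable, with ANKRD37 changed by 1.30 (adjusted p = 0.0057) and P4HA2 by 0.64 (adjusted p = 0.00286). The libraries of these genes did not overlap between the groups. CA9, the membrane carbonic anhydrase, changed by 0.44 (adjusted p = 0.125) and VEGFA by -0.44 (adjusted p = 0.124), and neither was called. The 8 higher members became 4 without V2, 5 without V3 and 4 without K2 or K3, and without V1 there were 8 higher and 3 lower. Of 24 genes of glycolysis and glucose entry, 6 were higher and 0 lower (median 0.29). SLC16A3 (MCT4), which exports lactate, had 161, 133 and 91.6 TPM in vector and 340.0, 371 and 368 TPM in HIF2α-ko (log2 fold change 1.51, standard error 0.16, adjusted p = 0.000882), with all HIF2α-ko values above 2 times any vector value. PGK1, phosphoglycerate kinase, had 1373, 1030.4 and 1082 TPM in vector and 1874, 2035 and 2019 TPM in HIF2α-ko (log2 fold change 0.78, standard error 0.14, adjusted p = 0.00596), and PFKFB4, which sets the level of fructose 2,6-bisphosphate, rose by 0.81 (adjusted p = 0.00922). The abundant ENO1 (enolase) and GAPDH were not called, at 0.40 (adjusted p = 0.0581) and 0.30 (adjusted p = 0.219). The 6 higher members became 3 without K2, and 4 without any of the other 4 libraries apart from V1.

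Of the 27 genes described elsewhere as HIF2α targets, 16 were tested, of which 3 were lower and 1 higher, with a median of -0.09. TGFA, a ligand of the EGF receptor, had 18.6, 12.3 and 19.7 TPM in V1 to V3 and 5.76, 7.37 and 10.2 TPM in K1 to K3 (log2 fold change -1.03, standard error 0.21, adjusted p = 0.011), and its call was lost without V3. LOX, a lysyl oxidase that crosslinks collagen, had 816, 969 and 1139.8 TPM in vector and 663, 446 and 445 TPM in HIF2α-ko (log2 fold change -0.92, standard error 0.21, adjusted p = 0.0153), and the call was lost without V3 or K2 or K3 and with median ratio scaling. HILPDA, a lipid droplet protein that hypoxia induces, was the higher member (log2 fold change 0.74, standard error 0.22, adjusted p = 0.0493), a call lost without any of the 5 libraries other than V1 and without any library of the other 2 groups except HIF1α/2α-ko replicate 1. The lower members were 5 without V1, 0 without V3, 1 without K2 or K3 and 2 without V2. The hypoxia response core ACGTG or GCGTG, sought on both strands in the 250 bases before the gene start, was held by 57.8% of the 9441 tested genes with a promoter in the RefSeq table, by 60% of those called higher and by 60.1% of those called lower. It was in 8 of the 11 promoters of the tested HIF2α targets that were in the table.

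Chemokines and cytokines, small secreted proteins that attract and activate immune cells, held the largest rises. Of 32 listed genes 22 were tested, of which 4 were higher and 2 lower, and the median was 0.68. Over all genes 5.07% were called higher and 5.89% lower. CXCL2, a ligand of CXCR2 that attracts neutrophils, had 127, 28.2 and 30.0 TPM in V1 to V3 and 187, 223 and 236 TPM in K1 to K3 (log2 fold change 2.14, standard error 0.42, adjusted p = 0.00852). CXCL8, another CXCR2 ligand, had 301, 50.5 and 53.6 TPM in vector and 383, 849.6 and 974 TPM in HIF2α-ko (log2 fold change 2.85, standard error 0.64, adjusted p = 0.0156). CCL20, a ligand of CCR6, had 39.0, 2.17 and 1.93 TPM in vector and 35.6, 118 and 139 TPM in HIF2α-ko (log2 fold change 3.56, standard error 0.87, adjusted p = 0.0231). In all 3 genes V1 stood far above V2 and V3, in CCL20 even above K1, and K1 was the lowest HIF2α-ko library. Without V1 the log2 fold changes were 2.84, 3.69 and 4.80. The call of CXCL2 was stable, while those of CXCL8 and CCL20 were lost without V2 or V3 or K2 or K3, and in a fit of the 6 libraries alone none of the 3 was called. IL11, a cytokine of the IL-6 family, rose by 0.69 (adjusted p = 0.0157), a call lost without V3 or K2 or K3. The list as a whole moved with V1, from 4 higher and 2 lower to 13 higher and 0 lower without it. Without V2 there were 2 and 1, without V3 or K2 or K3 there were 1 and 0, and without K1 there were 4 and 1.

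The promoters of CXCL8 (chr4:73740319-73740568, plus strand) and CXCL2 (chr4:74099196-74099445, minus strand) are shown, in RefSeq sequence of GRCh38.p14, because both genes rose and both hold a binding motif of NF-κB. Each is the 250 bases before the gene start, 5′ to 3′ on the strand of the gene, and capitals mark AATTTCC, part of the NF-κB motif, or its reverse complement, and in CXCL8 also TGANTCA, the AP-1 motif.
CXCL8: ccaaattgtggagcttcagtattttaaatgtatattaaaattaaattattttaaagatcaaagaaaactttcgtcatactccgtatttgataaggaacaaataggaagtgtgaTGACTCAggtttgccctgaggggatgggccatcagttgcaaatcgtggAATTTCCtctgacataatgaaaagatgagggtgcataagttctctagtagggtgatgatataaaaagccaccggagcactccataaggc
CXCL2: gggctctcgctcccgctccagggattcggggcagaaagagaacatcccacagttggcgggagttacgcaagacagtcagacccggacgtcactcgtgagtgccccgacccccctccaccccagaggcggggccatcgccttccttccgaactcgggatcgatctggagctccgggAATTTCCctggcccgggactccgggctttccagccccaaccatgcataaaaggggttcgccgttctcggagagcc
The NF-κB motif began at position -89 of CXCL8 and at -75 of CXCL2, counted back from the gene start, and the AP-1 motif at -137 of CXCL8. AATTTCC, on either strand, was in 5 of the 15 chemokine and cytokine promoters in the table, those of CXCL1, CXCL2, CXCL3, CXCL8 and IL24 (of which CXCL2 and CXCL8 were called), and in 2.97% of the promoters of all tested genes. It was in 2.55% of the promoters of all genes called higher and in 2.90% of those called lower. A match is a description of the letters and not of binding.

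Of 20 tested NF-κB subunits and feedback genes, 5 were higher and 1 lower (median 0.49), against 5.07% and 5.89% of all genes. RELB, a subunit of the non-canonical pathway, was stable, with 39.4, 35.2 and 31.7 TPM in vector and 57.4, 61.2 and 59.7 TPM in HIF2α-ko (log2 fold change 0.74, standard error 0.12, adjusted p = 0.00498). TNFAIP2 rose by 1.44 (adjusted p = 0.0123) and SOD2, the mitochondrial superoxide dismutase, by 1.35 (adjusted p = 0.0211), with V1 at 733 TPM of SOD2 against 304 and 233 in the other two vector libraries. The call of TNFAIP2 was lost without V3, and that of SOD2 without V2 or V3 or K2 or K3. BCL3, an atypical IκB protein, was the lower member, at -0.66 (adjusted p = 0.0306), and was no longer called without V2 or V3 or K2 or K3 or with median ratio scaling. Without V1 the list had 12 higher and 2 lower, without V2 it had 2 and 0, without V3 it had 1 and 0, without K1 it had 3 and 1 and without K2 or K3 it had 2 and 0. Of 32 tested immediate early genes, 4 were higher, against 5.07% of all genes, and 2 lower, near the 5.89% of all genes called lower. All 4 rises were stable. JUNB had 81.0, 77.8 and 75.0 TPM in vector and 198, 179 and 174 TPM in HIF2α-ko (log2 fold change 1.22, standard error 0.21, adjusted p = 0.00537) and JUND, a second member of the AP-1 family, had 42.7, 45.4 and 47.7 TPM in vector and 69.0, 85.0 and 82.4 TPM in HIF2α-ko (log2 fold change 0.78, standard error 0.12, adjusted p = 0.00286). DUSP5, a phosphatase of nuclear ERK, rose by 0.93 (adjusted p = 0.00496), and ZFP36L1 is given above. For JUNB, JUND and DUSP5 the vector libraries differed little, V1 included, and the HIF2α-ko libraries all lay above them.

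Genes of mitosis held calls in 1 direction. Of 15 tested mitotic kinases and checkpoint genes, 7 were lower and 0 higher against 5.89% of all genes called lower, with a median of -0.73 and all 15 fold changes below 0. PLK1, the polo-like kinase needed for entry into and passage through mitosis, had 156, 322 and 316 TPM in V1 to V3 and 121, 56.3 and 47.4 TPM in K1 to K3 (log2 fold change -1.86, standard error 0.52, adjusted p = 0.0393). BUB1, a spindle checkpoint kinase, had 10.2, 9.74 and 11.6 TPM in vector and 6.77, 4.98 and 5.23 TPM in HIF2α-ko (log2 fold change -0.80, standard error 0.18, adjusted p = 0.018), and NEK2, a kinase of centrosome separation, had 5.22, 10.6 and 11.9 TPM in vector and 3.70, 3.47 and 3.31 TPM in HIF2α-ko (log2 fold change -1.12, standard error 0.28, adjusted p = 0.0265). K1 was the highest HIF2α-ko library for each of these genes, and the groups did not overlap. Of 15 mitotic cyclins and exit genes, 6 were lower and 0 higher (median -0.61), among them CCNB2, a cyclin of CDK1, with 63.6, 77.3 and 99.1 TPM in vector and 52.7, 37.2 and 37.7 TPM in HIF2α-ko (log2 fold change -0.89, standard error 0.21, adjusted p = 0.018). Of 29 tested spindle and kinetochore genes, 6 were lower and 0 higher (median -0.70), and 28 of the 29 fold changes were below 0. PRC1, which bundles midzone microtubules, changed by -0.99 (adjusted p = 0.0135) and TPX2, an activator of Aurora A, by -1.23 (adjusted p = 0.027).

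None of these 19 mitotic calls was stable. Without V3 or K2 or K3 the 3 lists held 0 lower genes, without V2 they held 2, 1 and 2, and without V1 they held 8, 8 and 5, with 1 cyclin or exit gene higher. PLK1 was not called either when HIF1α-ko replicate 3 was left out. Without K1 the counts were 6, 6 and 5. With median ratio scaling they became 3, 1 and 1 and with quantile normalization 2, 3 and 2, in both cases with 1 cyclin or exit gene higher. The medians stayed between -0.84 and -0.69, -0.82 and -0.45, and -0.88 and -0.57 when 1 of the 6 libraries was left out. Of 28 tested DNA replication genes, 2 were lower and 0 higher, near the 5.89% of all genes called lower (median -0.25), RFC5, of a clamp loader, and PRIM1, of primase, and both calls were lost with median ratio scaling and without V2 or V3 or K2 or K3 or HIF1α/2α-ko replicate 3. Of 14 tested G1 regulators, CDKN2D, an inhibitor of CDK4 and CDK6, was the called member, with 16.6, 20.6 and 16.5 TPM in vector and 38.6, 36.6 and 36.6 TPM in HIF2α-ko (log2 fold change 1.02, standard error 0.15, adjusted p = 0.00264), and this call was stable.

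The promoters of PLK1 (chr16:23678639-23678888, plus strand) and CCNB2 (chr15:59104896-59105145, plus strand), chosen after the values were seen, are shown because both fell and because both hold TTTGAA, the cell cycle homology region that late cell cycle genes share. They are given as above, with capitals for TTTGAA or its reverse complement.
PLK1: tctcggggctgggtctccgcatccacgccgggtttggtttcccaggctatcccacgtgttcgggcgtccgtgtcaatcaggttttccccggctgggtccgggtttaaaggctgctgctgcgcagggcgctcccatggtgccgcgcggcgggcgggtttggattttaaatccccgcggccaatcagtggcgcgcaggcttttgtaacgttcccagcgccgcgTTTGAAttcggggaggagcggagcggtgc
CCNB2: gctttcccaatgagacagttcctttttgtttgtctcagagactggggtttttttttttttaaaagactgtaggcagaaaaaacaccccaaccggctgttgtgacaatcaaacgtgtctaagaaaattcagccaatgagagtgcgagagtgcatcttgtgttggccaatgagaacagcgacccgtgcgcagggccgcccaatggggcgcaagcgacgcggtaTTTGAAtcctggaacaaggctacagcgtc
In both promoters the motif began at position -29. It was in 15 of 27 spindle and kinetochore promoters in the table (55.6%), in 3 of 9 of the mitotic kinases and checkpoint genes and in 7 of 14 of the cyclins and exit genes, against 8.30% of all tested genes, 11.2% of those called lower and 5.32% of those called higher. Among the 15 spindle and kinetochore genes with the motif, 3 were called lower. The hypoxia response core, not marked in these sequences, occurred 3 times in the PLK1 promoter and 1 time in that of CCNB2, counting both strands. That core was in 18 of 27 spindle and kinetochore promoters, 5 of 9 of the kinases and checkpoint genes and 11 of 14 of the cyclins and exit genes, against 57.8% of all tested genes.

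Genes of TGF-beta and BMP signalling moved in both directions, with 3 of 23 tested members higher and 4 lower (median -0.25), against 5.07% and 5.89% of all genes. TGFB1, the ligand TGF-beta 1, had 379.6, 411 and 431 TPM in V1 to V3 and 247, 242 and 233 TPM in K1 to K3 (log2 fold change -0.75, standard error 0.15, adjusted p = 0.00971), and its call held when any of the 6 libraries was left out but not with median ratio scaling. GREM1, a secreted BMP antagonist, had 12.1, 6.68 and 6.76 TPM in vector and 2.70, 4.35 and 2.84 TPM in HIF2α-ko (log2 fold change -1.12, standard error 0.23, adjusted p = 0.0104), whereas the ligand BMP2 had 1.62, 0.819 and 0.829 TPM in vector and 3.85, 3.70 and 4.10 TPM in HIF2α-ko (log2 fold change 1.25, standard error 0.21, adjusted p = 0.00509). Thus TGFB1, the effector SMAD3 and GREM1 fell, and BMP2 and the BMP targets ID1 and ID3 rose. Of 10 tested lysyl oxidases and collagen hydroxylases, 2 were lower and 1 higher. LOXL2, a lysyl oxidase-like enzyme, had 2238, 2339 and 2285 TPM in vector and 1118, 1284 and 1294 TPM in HIF2α-ko (log2 fold change -0.90, standard error 0.10, adjusted p = 0.000848), with hardly any spread within the groups, while P4HA2 rose as given above, and the lower members became 1 without V3 or K2 or K3. Of 32 tested collagens, laminins and matrix glycoproteins, 4 were higher, against 5.07% of all genes, and 2 lower, near the 5.89% of all genes called lower. TGFBI, a matrix protein that TGF-beta induces, had 9010.3, 11282 and 12704 TPM in vector and 4149.9, 5769 and 5294 TPM in HIF2α-ko (log2 fold change -1.12, standard error 0.15, adjusted p = 0.00198), and COL13A1, a transmembrane collagen at low level, rose by 1.09 (adjusted p = 0.00179), and both were stable. The higher members of this list were 6 without V1, 2 without V2 or K1 and 1 without V3 or K2, and the lower members were 3 without V1 and 1 without any of the other 5 libraries.

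Of 14 tested growth factor receptors and EGF family ligands, 3 were lower and 0 higher. EGFR had 81.9, 99.8 and 120.5 TPM in V1 to V3 and 36.6, 55.1 and 52.4 TPM in K1 to K3 (log2 fold change -1.06, standard error 0.19, adjusted p = 0.00575). Its ligand TGFA was lower as given above, while HBEGF, another EGF family ligand, went the other way. HBEGF was not called with all libraries but was higher by 1.55 without V1 (adjusted p = 0.0276). Fold changes in the list reached 1.77. The call of EGFR was stable, while the list had 2 higher and 5 lower members without V1 and 0 and 1 without V3. Among 14 tested angiogenic factors and receptors, 3 were higher and 1 lower, with VEGFC, a lymphangiogenic ligand, changed by -0.72 (adjusted p = 0.0188), a call lost without V3 or K1, and with ANGPTL4 the stable rise. This list had 4 higher and 3 lower members without V1, 1 and 0 without V3 and 1 and 1 without K3. In the list of 23 actin and SRF/YAP target genes, 2 were higher and 2 lower, against 5.07% and 5.89% of all genes. These counts became 5 and 5 without V1 and 1 and 1 without K2 or K3, and without any of the other 3 libraries the higher members were 1. ZYX (zyxin), a focal adhesion protein, had 199, 258 and 209 TPM in vector and 139.6, 134 and 137 TPM in HIF2α-ko (log2 fold change -0.69, standard error 0.13, adjusted p = 0.00718), and FLNA (filamin A), an actin crosslinker, had 831, 902 and 873 TPM in vector and 1313, 1284 and 1143 TPM in HIF2α-ko (log2 fold change 0.52, standard error 0.10, adjusted p = 0.00733), both stable. ACTB, often used as a reference gene, had 1132, 466 and 411 TPM in vector and 1497, 1336 and 1387 TPM in HIF2α-ko (log2 fold change 1.22, standard error 0.28, adjusted p = 0.0182), and its call was lost without any of the 5 libraries other than V1, which stood at more than 2 times the other two vector libraries. VIM, the intermediate filament of mesenchymal cells, had 11593, 12725 and 14690.3 TPM in vector and 6675, 7682 and 7901 TPM in HIF2α-ko (log2 fold change -0.81, standard error 0.16, adjusted p = 0.00858) and was stable.

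Genes of cholesterol and fatty acid synthesis followed. Of 26 tested members, 6 were higher and 0 lower (median 0.63), against 5.07% and 5.89% of all genes, and 25 of the 26 fold changes were above 0. MVD, mevalonate diphosphate decarboxylase, was the stable call, with 101, 66.7 and 58.5 TPM in vector and 136, 145 and 144 TPM in HIF2α-ko (log2 fold change 0.94, standard error 0.17, adjusted p = 0.00604). HMGCS1, which makes HMG-CoA, had 133, 14.3 and 17.8 TPM in vector and 169, 199 and 131 TPM in HIF2α-ko (log2 fold change 2.29, standard error 0.60, adjusted p = 0.0291), and FASN, fatty acid synthase, had 114, 36.6 and 38.1 TPM in vector and 186, 120.4 and 112 TPM in HIF2α-ko (log2 fold change 1.31, standard error 0.37, adjusted p = 0.0413). In HMGCS1 V1 lay within the range of HIF2α-ko, while V2 and V3 lay far below, and the same held for FASN. Both calls were lost without any of the 5 libraries other than V1, and that of FASN also without replicate 2 or 3 of HIF1α-ko or of HIF1α/2α-ko. Without V1 the list had 23 higher and 0 lower, and without any of the other 5 libraries it had 1 and 0. Lipid droplet genes showed a like dependence, with 3 of 14 tested members higher and 0 lower, 7 and 0 without V1, 2 without K1 and 1 without any of the other 4 libraries. PLIN4, a droplet coat protein, was the stable call, with 1.65, 1.76 and 1.73 TPM in vector and 5.02, 3.70 and 3.86 TPM in HIF2α-ko (log2 fold change 0.93, standard error 0.16, adjusted p = 0.00575).

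Nuclear genes of the respiratory chain had 20 members higher and 3 lower of 81 tested (median 0.24), against 5.07% and 5.89% of all genes. Several small subunits of complex I were stable, such as NDUFA1, with 87.1, 67.8 and 70.5 TPM in V1 to V3 and 133, 141 and 159 TPM in K1 to K3 (log2 fold change 0.94, standard error 0.16, adjusted p = 0.00468), NDUFB8, with 217, 240.0 and 227 TPM in vector and 430.2, 367 and 369.7 TPM in HIF2α-ko (log2 fold change 0.77, standard error 0.13, adjusted p = 0.00548), and NDUFB2, changed by 0.75 (adjusted p = 0.00614). In these genes each HIF2α-ko library lay above each vector library. COX5B of complex IV rose by 0.51 (adjusted p = 0.00852), while ATP5PF of the ATP synthase changed by -0.67 (adjusted p = 0.00678), both stable. The higher members were 25 without V1, 14 without V2, 9 without V3 and 11 or 12 without a HIF2α-ko library, and 19 with either rescaling. The 13 protein-coding genes of the mitochondrial genome behaved otherwise. Their summed level was 31678 TPM in V1 and between 5169 and 8841 TPM in the other 5 libraries. None was called by limma (0 of the 13 had an unadjusted p under 0.05), and their median of -0.73 became 0.15 without V1 and -1.42 without V2, where MT-ND4L was called lower. The part of these abundant transcripts in the TPM of other genes was not tested.

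Mitochondrial ribosomal proteins moved both ways, with 10 higher and 7 lower of 78 tested (median 0.04), against 5.07% and 5.89% of all genes. MRPL17 had 67.4, 69.3 and 50.6 TPM in vector and 139, 129 and 135 TPM in HIF2α-ko (log2 fold change 1.10, standard error 0.14, adjusted p = 0.00157), and MRPL37 had 199, 241 and 299.6 TPM in vector and 152, 143 and 135 TPM in HIF2α-ko (log2 fold change -0.76, standard error 0.14, adjusted p = 0.00755), both stable and without overlap. The counts were 8 and 2 without V2, 5 and 1 without V3, and 5 and 5, 5 and 3 and 7 and 2 without K1, K2 and K3. Of 82 tested cytosolic ribosomal proteins, 8 were higher and 8 lower (median 0.01), against the same shares, with RPL24 and RPS25 among the lower and RPS9 among the higher stable members. RPL24 had 2795, 3553 and 3962 TPM in vector and 2057, 2041 and 2091 TPM in HIF2α-ko (log2 fold change -0.72, standard error 0.12, adjusted p = 0.00475) and RPS9 had 1576, 1809.9 and 1633 TPM in vector and 2471, 2236 and 2197 TPM in HIF2α-ko (log2 fold change 0.46, standard error 0.10, adjusted p = 0.011). These genes have many processed pseudogenes, so the share of reads assigned to each is uncertain, and the counts were 7 and 14 without V1, 7 and 3 and 2 and 4 without V2 and V3, and 4 and 5, 1 and 3 and 1 and 5 without K1, K2 and K3. Of 21 tested genes of histones whose main mRNAs lack poly(A) tails, 4 were higher and 0 lower, led by HIST2H2AA3 and HIST2H2AA4, near-identical copies whose reads can hardly be told apart. The 4 became 2 without V3 or K2 or K3, and 6 without V1.

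Smaller groups held single stable calls. Among metallothioneins, MT1X, which buffers zinc and copper, had 920.2, 938 and 786 TPM in V1 to V3 and 474, 438 and 479 TPM in K1 to K3 (log2 fold change -0.92, standard error 0.13, adjusted p = 0.00211), opposite in direction to MT3, and reads may be shared with other genes of the MT1 family. CALR (calreticulin), a chaperone of the endoplasmic reticulum and of MHC class I assembly, had 2850.1, 2573 and 2627 TPM in vector and 1752, 1695 and 1628 TPM in HIF2α-ko (log2 fold change -0.66, standard error 0.12, adjusted p = 0.00623), while DDIT3 (CHOP), a stress response factor, was not called at 0.78 (adjusted p = 0.089). NFIL3, a repressor in the clock circuit, had 43.8, 81.3 and 95.8 TPM in vector and 24.8, 31.0 and 31.3 TPM in HIF2α-ko (log2 fold change -1.25, standard error 0.25, adjusted p = 0.00953), and IFIT1, an interferon-induced sensor of viral RNA, had 3.81, 5.43 and 6.17 TPM in vector and 2.05, 1.22 and 1.52 TPM in HIF2α-ko (log2 fold change -1.23, standard error 0.20, adjusted p = 0.00404). The amino acid transporter SLC1A5 (ASCT2), which imports glutamine, rose by 0.73 (adjusted p = 0.00732), and the efflux transporter ABCC3 (MRP3) rose by 1.03 (adjusted p = 0.00852). Each of these calls was stable. NQO1, a quinone reductase of the antioxidant response, rose by 1.14 (adjusted p = 0.0106), a call lost without V3. ATG9A was the called autophagy gene, at 0.97 (adjusted p = 0.0307), and was lost without any of the 5 libraries other than V1.

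Among the other genes the study followed by name, those reported here were low or were not called. ABCG2, a drug efflux transporter, did not pass the filter, with 0.269, 0.319 and 0.459 TPM in vector and 0.560, 0.644 and 0.717 TPM in HIF2α-ko, and PROM1 (CD133) stayed at 0.625 TPM or lower. FUT4, which makes the CD15 epitope, differed by 0.33 (adjusted p = 0.276) on the log2 scale, and the pro-apoptotic BAX by 0.21 (adjusted p = 0.327). Of 11 tested neural and glioma stem cell markers, 0 were called by limma and 1 had an unadjusted p under 0.05, and without V1 there was 1 higher.

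HIF2α loss can also be read on the HIF1α-ko background, from HIF1α/2α-ko against HIF1α-ko, a comparison that shares no library with the one above. There 3322 genes were called (28.3%), 2076 higher (17.7%) and 1246 lower (10.6%). Genes called in the same direction on both backgrounds numbered 319 (179 higher and 140 lower), which is 24.8% of the HIF2α-ko calls and 9.60% of the calls on the HIF1α-ko background, and 197 were called in opposite directions. Of the 595 genes higher in HIF2α-ko, 179 were higher and 66 lower on the HIF1α-ko background. Of the 691 lower genes, 140 were lower and 131 higher there. These counts stand against the 17.7% of all genes called higher and 10.6% called lower there. Of the 1286 HIF2α-ko calls, 52.3% had the same sign on the HIF1α-ko background. Pearson's r of the 2 changes over all tested genes was 0.091, and the overlap expected by chance was not computed. The interaction term, which tests whether the 2 changes differ, was called in 2414 genes (20.6%). Among the 396 stable genes, 128 were called in the same direction and 65 in the opposite.

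ACKR3 had the largest change shared by both backgrounds, at -3.71 (adjusted p = 7.04e-07) on the HIF1α-ko background. EPAS1 changed by -1.18 (adjusted p = 0.000153) there, WFDC5 by -2.33 (adjusted p = 0.000127) and SMAD3 by -2.02 (adjusted p = 0.00033). CXCL2 and ID3 rose on both, by 2.06 (adjusted p = 0.00353) and 2.02 (adjusted p = 0.000341), and so did SAA1 and BMP2, by 1.81 (adjusted p = 0.000412) and 1.81 (adjusted p = 0.000117). For these genes the interaction was not called, except for ACKR3, which fell further on the HIF1α-ko background. The glycolysis list held 12 higher and 2 lower members on the HIF1α-ko background, with a median of 0.59 against 0.07 over all genes, and 5 members were higher on both. Of the 27 hypoxia markers, 7 were higher and 8 lower there (median 0.11). Of these markers, 2 were higher on both backgrounds and 2 were called in opposite directions, and the interaction was called in 10. For mitosis, the 15 kinases and checkpoint genes had 2 higher and 1 lower (median 0.38), the 15 cyclins and exit genes 3 higher and 0 lower (median 0.31) and the 29 spindle genes 1 higher and 0 lower (median 0.30). Over all genes 17.7% were called higher and 10.6% lower there. The interaction was called in 8, 5 and 8 of these mitotic genes, against 20.6% of all genes. The mitotic genes named above were also called lower in HIF1α-ko than in vector. These log2 fold changes were -2.66 for PLK1, -1.42 for BUB1, -1.77 for NEK2, -1.40 for CCNB2, -1.48 for PRC1 and -2.04 for TPX2. With both subunits knocked out, PLK1 differed from vector by -1.89 and the others by -1.52 to -0.98. Both comparisons use the same vector libraries as above. Whether the mitotic falls are particular to HIF2α loss was not tested. Among the HIF2α targets, 9 of 16 were lower on the HIF1α-ko background and 3 were lower on both, and among lysyl oxidases and collagen hydroxylases 8 of 10 were lower and 2 were lower on both. The nuclear respiratory list had 17 of 81 higher and 0 lower there, near the 17.7% of all genes called higher, with a median of 0.09 against 0.07 over all genes, and 1 member was higher on both.

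**Figure D3:**
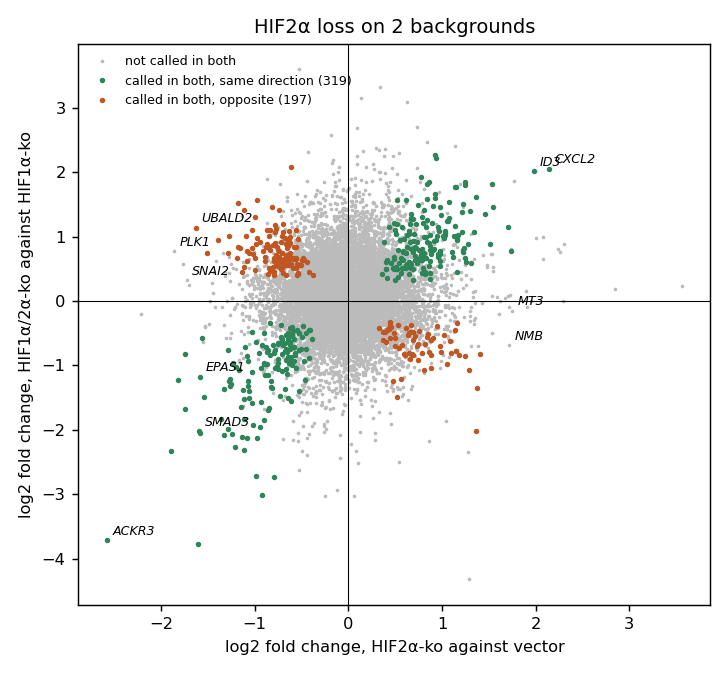
Log2 fold change in HIF2α-ko against vector (horizontal) and in HIF1α/2α-ko against HIF1α-ko (vertical) for the 11731 tested genes. Green points are the 319 genes called in both in the same direction, with ACKR3 at the lower left and CXCL2 and ID3 at the upper right, and orange points the 197 called in opposite directions, such as UBALD2.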

How the data were processed

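Poly(A) mRNA of U87 cells under hypoxia was sequenced in 12 libraries, 3 in each of 4 groups. The authors deposited 1 table of TPM per gene, reads per gene length scaled to a fixed total; their submitted processing notes name FastQC 0.11.2, Trimmomatic 0.36, HISAT2 2.0, bedtools 2.26.0 and GRCh38, and the program that counted reads is not given in the sources used here. Columns were tied to samples by knockout code and number, and the 3 columns without a code to the vector samples. TPM keeps no depth, so no counting interval could be given. Of 20263 genes, 11731 with at least 1 TPM in at least 3 libraries were fitted as log2(TPM + 1) by limma 3.58.1 (R 4.3.3) with a mean-variance trend, all 4 groups together, and p-values were adjusted by Benjamini and Hochberg over all genes. On simulated data with 200 changed genes among 11731, 63.0% were recovered at a log2 change of 1 and 94.5% at 2. Symbols were matched for 20148 genes from the gene name table and 76 from GENCODE 29, and gene coordinates are those of GRCh38. Promoters were RefSeq sequences of GRCh38.p14. Same-numbered libraries were not treated as paired in the main fit. The deviations of same-numbered vector and HIF2α-ko libraries from their group means correlated at 0.127, 0.0186 and 0.0978 for replicates 1 to 3. The other groups were not part of this check, so it cannot exclude an effect shared by same-numbered libraries.

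Genes named were those the study follows, the 10 largest rises and falls among called genes without overlap and among stable calls (mean of at least 5 TPM in the higher group), and up to 4 members of each list by p. A few genes that this rule names are not reported here. CA9, VEGFA, ENO1, GAPDH, DDIT3, GREM1, COX5B, ATP5PF and the promoters of PLK1 and CCNB2 were chosen after their values were seen. The comparison, the genes and the lists were chosen with earlier results of these data known. Alternatives covered scaling, filters, the pseudocount, the variance model, weights, a replicate block and each library left out.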

Additional observations from a re-analysis of the deposited data

Results flagged for a closer look

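Among the genes the study follows and those with the largest rises and falls, but not those named only as members of a gene list, there were 13 for which the change on HIF2α loss differed between the vector and the HIF1α-ko background by the interaction term of limma, with Benjamini-Hochberg adjusted p-values over 11731 genes. Over all tested genes the interaction was called in 2414 (20.6%), so a call in this term is common. The values are the log2 fold change of HIF1α/2α-ko against HIF1α-ko less that of HIF2α-ko against vector. Apart from HIF1A, these genes were chosen by the size of their change in HIF2α-ko against vector. That same change is subtracted here, so the choice itself favours a difference of the opposite sign. The difference was above 0 for 5 genes that were lower in HIF2α-ko and had log2 fold changes of 0.32 to 1.14 on the HIF1α-ko background, namely UBALD2 at 2.76 (adjusted p = 0.00316), PLK1 at 2.63 (adjusted p = 0.0259), ENSG00000267952 at 2.34 (adjusted p = 0.00436), SNAI2 at 2.04 (adjusted p = 0.00625) and HIF1A at 1.15 (adjusted p = 0.0131, with the fall itself not called). It was below 0 for NMB at -2.40 (adjusted p = 0.00168), DDIT4 at -2.03 (adjusted p = 0.00338), ENSG00000255339 at -2.01 (adjusted p = 0.0056), TRPV2 at -1.94 (adjusted p = 0.0338), MT3 at -1.89 (adjusted p = 0.00319), RARRES2 at -1.45 (adjusted p = 0.00894) and C11orf96 at -0.96 (adjusted p = 0.0107), 7 genes that rose in HIF2α-ko and had log2 fold changes of -0.68 to 0.78 on the HIF1α-ko background. ACKR3, which fell on both, differed by -1.14 (adjusted p = 0.0167). HIF1A is itself the gene targeted in HIF1α-ko and HIF1α/2α-ko, with means of 124, 48.5 and 75.5 TPM in vector, HIF1α-ko and HIF1α/2α-ko. Its change on the HIF1α-ko background therefore compares 2 groups in which it was targeted. UBALD2, PLK1, ENSG00000267952 and SNAI2 were also lower in HIF1α-ko than in vector, with log2 fold changes of -2.16, -2.66, -1.78 and -1.25. With both subunits knocked out, their changes from vector were -1.02, -1.89, -1.20 and -0.93.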

How the results depend on the processing

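The count of 1286 called genes was 474 with these 2 groups alone in the fit, 2068 with a replicate block, 4126 with array weights, 263 with a log2 fold change of at least 1 also required, 4283 without replicate 1 of every group, and 471 to 2497 without 1 library. The 595 higher genes became 224, 894, 2184, 127 and 2403 in the same order and 250 to 1304 without 1 library, and the 691 lower genes became 250, 1174, 1942, 136 and 1880, and 219 to 1193. The 3322 calls on the HIF1α-ko background became 6575 with array weights, 1000 with the fold threshold and 5276 without replicate 1 of every group, and 2310 to 4072 without 1 library. The 2414 interaction calls became 5705, 1376 and 5040 in that order, and 1542 to 3564 without 1 library. Array weights were lowest for replicate 1 in all 4 groups, at 0.163 for vector, 0.198 for HIF1α/2α-ko, 0.391 for HIF1α-ko and 0.406 for HIF2α-ko, and at least 1.08 for the other libraries. The cause of these shifts was not tested, except that the fold threshold can only remove calls. Of the 172 genes named by rule, 114 were called, and 55 of them kept the call under every alternative other than the fold threshold; over all named genes and alternatives 3563 pairs kept their side, 374 lost a call, 164 gained one and 0 changed direction. Same-numbered libraries were not treated as paired in the main fit, and the replicate block is given only here. Whether same-numbered libraries share an effect was not tested. TPM values hold no depth, so the precision of low genes cannot be given.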
